A study of Mus musculus with 2 samples.

Results

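The RNA modification N6-methyladenosine (m6A) is placed on transcripts by a writer complex and taken off by erasers. The genes described here are 6 writers (Mettl3, Mettl14, Wtap, Zc3h13, Rbm15 and Cbll1) and 2 erasers (Alkbh5 and Fto), that is 8 of the 32285 genes in each matrix, picked by symbol and each found in 1 row. They were measured by droplet single-cell RNA sequencing of immune cells from subcutaneous tumors of MC38, a colon carcinoma line of the mouse, in 1 Control library and 1 IR library. WT mice carried the tumors of both groups, the IR tumors received a single local dose of 20 Gy 4 days before collection, and the Control tumors did not. Per the methods of the study, each library pooled 4 tumors, and live CD45+ cells were sorted. The records label both samples CD45+CD11b+Ly6Chi, a narrower sort, yet T cell, NK cell and dendritic cell transcripts were abundant in both libraries, so the populations are named here by their own marker transcripts.

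Writers work as a complex. METTL3 is the catalytic methyltransferase and METTL14 its RNA-binding partner, WTAP is the adaptor that holds the complex in nuclear speckles, and ZC3H13, RBM15 and the E3 ligase-like protein CBLL1 (Hakai) help to anchor it or to bring it to its target sites. ALKBH5 and FTO are iron- and oxoglutarate-dependent dioxygenases that remove the methyl group, and reader proteins of the YTH family bind the mark and set the fate of the transcript.

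UMIs (unique molecular identifiers, each marking 1 captured RNA molecule) were summed per library over barcodes with at least 1000 UMIs and at most 25% mitochondrial UMIs, 4679 in Control and 3411 in IR. Each barcode was placed in a lineage gate by raw UMIs of marker genes. The monocyte gate held 633 Control and 971 IR barcodes, the macrophage gate 1648 and 334, the dendritic cell gate 175 and 188, the NK cell gate 201 and 246, and the T cell gate 563 and 391. Markers kept out of the gates were used to check them. The summed level of Ccl22, Bcl11a and Batf3 was 2824 and 2486 CPM (UMIs of a gene per 1000000 UMIs of the gate) in dendritic cells and at most 64.2 CPM in the monocyte and macrophage gates. Other lists were shared between gates. Gzma, Nkg7 and Prf1 were at 6334 and 10609 CPM in NK cells and also at 3186 and 5662 CPM in T cells, and the macrophage list (Apoe, Ms4a7, Mrc1 and Adgre1) was at 3952 and 2095 CPM in macrophages and at 877 and 558 CPM in monocytes. Barcodes with markers of more than 1 lineage, 763 in Control and 774 in IR, were left out, and 6 of the kept barcodes occurred in both libraries. With 1 library per group there was no replicate and no test. Intervals are 95% intervals for counting error only, and they leave out the variation between tumors and libraries.

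Per the GENCODE annotation of GRCm38, all 8 genes are protein-coding. Mettl3 (ENSMUSG00000022160) spans chr14:52294841-52305128 on the minus strand, where it overlaps Tox4 on the other strand. Mettl14 (ENSMUSG00000028114) is at chr3:123368297-123386108, Rbm15 (ENSMUSG00000048109) at chr3:107325421-107333673, Wtap (ENSMUSG00000060475) at chr17:12966796-12994169 and Cbll1 (ENSMUSG00000020659) at chr12:31484829-31499616, all on the minus strand. Zc3h13 (ENSMUSG00000022000) at chr14:75284373-75344426, Alkbh5 (ENSMUSG00000042650) at chr11:60536381-60558512 and Fto (ENSMUSG00000055932) at chr8:91313525-91668439 are on the plus strand. Within its long span Fto overlaps 4 annotated genes on its own strand, so that a read could be shared there.

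The promoters of the members had a feature in common that played no part in choosing them. RefSeq promoters (GRCm38.p6) were on hand for 7 of the 8 genes, with 10 annotated starts, and for Mettl14 none was. In the 250 bases before each start, members held 13 to 41 CpG dinucleotides, against a median of 6 over 32851 promoters. These are all promoters, not only those of genes expressed in these cells. The RefSeq starts differ in part from the GENCODE spans given above, and the windows of Alkbh5, Wtap and Rbm15 lie inside those spans. The observed-to-expected CpG ratio ran from 0.73 in Cbll1 to 1.12 in Rbm15, where the median of all promoters was 0.37 and 24.3% of them reached the lowest member. The windows of Alkbh5 (chr11:60537433-60537682, plus strand, 14 CpGs) and Zc3h13 (chr14:75284116-75284365, plus strand, 21 CpGs) are printed 5′ to 3′ with each CpG in capitals, since among members with at least 50 UMIs the first differed most between the libraries and the second most between T cells and macrophages of the Control library.
Alkbh5: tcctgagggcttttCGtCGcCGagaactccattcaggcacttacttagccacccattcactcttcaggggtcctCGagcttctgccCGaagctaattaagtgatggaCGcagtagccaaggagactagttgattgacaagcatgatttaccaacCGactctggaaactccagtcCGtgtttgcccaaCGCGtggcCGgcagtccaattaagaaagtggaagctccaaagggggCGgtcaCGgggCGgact
Zc3h13: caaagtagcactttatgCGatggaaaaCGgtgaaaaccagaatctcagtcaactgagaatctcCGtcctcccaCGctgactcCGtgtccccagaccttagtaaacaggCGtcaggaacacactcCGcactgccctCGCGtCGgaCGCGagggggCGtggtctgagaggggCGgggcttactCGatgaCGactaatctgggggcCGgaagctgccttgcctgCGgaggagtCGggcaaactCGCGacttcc
On either strand, the letters of the interferon element GAAANNGAAA were in none of the 10 member windows and in 2.98% of all promoters. NF-kB sites were likewise in none of them and in 11.3% of all promoters.

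Mettl3, the catalytic subunit, was a low-count transcript in every gate. Its level was 7.50 CPM in Control monocytes (34 UMIs, interval 5.20 to 10.5) and 6.14 CPM in IR monocytes (53 UMIs, 4.60 to 8.04). In macrophages it was 7.55 CPM (119 UMIs, 6.25 to 9.03) and 8.99 CPM (35 UMIs, 6.26 to 12.5). The 4 intervals overlapped, so that neither the 2 lineages nor the 2 libraries could be told apart by this transcript. The T cell gate had 9.79 and 7.20 CPM, the NK cell gate 10.3 and 9.07 CPM, and the dendritic cell gate 3.60 and 6.37 CPM from 5 and 12 UMIs. No order of the 5 gates could be read from such counts, in either library.

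Mettl14, the partner of Mettl3, was as sparse. Monocytes had 4.86 CPM in Control (22 UMIs, 3.04 to 7.35) and 6.14 CPM in IR (53 UMIs, 4.60 to 8.04). Macrophages had 10.0 CPM in Control (158 UMIs, 8.52 to 11.7) and 7.19 CPM in IR (28 UMIs, 4.78 to 10.4). Control macrophages thus lay above Control monocytes with intervals that did not overlap, while in IR the 2 gates overlapped. The share of all genes that lay apart in this way between the 2 gates was not counted. T cells had 7.77 and 6.90 CPM, NK cells 6.16 and 5.89 CPM, and dendritic cells 6.47 and 3.72 CPM from 9 and 7 UMIs.

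Wtap, the adaptor subunit, was level across the 5 main gates. Monocytes had 62.0 CPM in Control (281 UMIs, 55.0 to 69.7) and 61.6 CPM in IR (531 UMIs, 56.4 to 67.0), and macrophages 62.2 CPM (981 UMIs, 58.4 to 66.3) and 64.7 CPM (252 UMIs, 57.0 to 73.2). T cells had 62.2 and 64.8 CPM from 216 UMIs in each library, and dendritic cells 59.7 and 62.6 CPM. The lowest main gate was that of NK cells, with 51.3 CPM in Control (40.3 to 64.3) and 49.4 CPM in IR (40.6 to 59.6), and these intervals still overlapped those of the other gates.

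Zc3h13, a zinc finger protein that keeps the complex in the nucleus, showed the clearest lineage order. T cells were highest, with 90.1 CPM in Control (313 UMIs, 80.4 to 101) and 74.1 CPM in IR (247 UMIs, 65.1 to 83.9). NK cells followed with 66.3 CPM (53.8 to 80.9) and 68.9 CPM (58.4 to 80.8), and dendritic cells had 52.5 CPM (41.1 to 66.0) and 61.1 CPM (50.4 to 73.3). The myeloid gates were lowest, monocytes at 49.2 CPM (43.0 to 56.1) and 45.1 CPM (40.7 to 49.8), macrophages at 49.4 CPM (46.0 to 53.0) and 53.7 CPM (46.7 to 61.5). In each library the intervals of T cells lay wholly above those of monocytes and macrophages, whereas NK cells and T cells overlapped, as did monocytes and macrophages. Both the CD8 T cells (87.3 and 78.4 CPM) and the CD4 T cells (92.6 and 83.8 CPM) had the high level.

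Rbm15, an RNA-binding adaptor, likewise had its higher levels in T and NK cells, although only some of the intervals were apart from those of the myeloid gates. T cells had 22.5 CPM in Control (78 UMIs, 17.8 to 28.0) and 19.8 CPM in IR (66 UMIs, 15.3 to 25.2), and NK cells 20.5 and 19.5 CPM. Monocytes had 13.7 CPM (62 UMIs, 10.5 to 17.5) and 11.7 CPM (101 UMIs, 9.54 to 14.2), macrophages 12.8 CPM (202 UMIs, 11.1 to 14.7) and 13.1 CPM (51 UMIs, 9.76 to 17.2), and dendritic cells 12.9 and 13.8 CPM. T cells were apart from monocytes in both libraries, but from macrophages in Control alone. The intervals of NK cells overlapped those of monocytes and of macrophages in both libraries.

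Cbll1, the Hakai subunit, was highest in NK cells. These had 29.4 CPM in Control (43 UMIs, 21.3 to 39.6) and 26.3 CPM in IR (58 UMIs, 20.0 to 34.0). Macrophages had 14.8 CPM (233 UMIs, 12.9 to 16.8) and 15.7 CPM (61 UMIs, 12.0 to 20.1), monocytes 14.6 CPM (66 UMIs, 11.3 to 18.5) and 18.7 CPM (161 UMIs, 15.9 to 21.8), and dendritic cells 16.5 and 11.1 CPM. NK cells were clear of monocytes and of macrophages in Control, and in IR their interval met those of both. T cells had 23.3 CPM in Control (81 UMIs, 18.5 to 29.0) and 15.9 CPM in IR (53 UMIs, 11.9 to 20.8). In Control they lay between NK cells and the myeloid gates, with an interval above that of macrophages. In IR they were beside macrophages and below monocytes in CPM, with intervals that overlapped those of both.

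Between T cells and macrophages such differences were ordinary by fold. For the other pairs of gates named above, and for intervals without overlap, the share of all genes was not counted. Set against macrophages, T cells differed by at least 1.5-fold in 3 of the 8 members in Control (Zc3h13, Rbm15 and Cbll1, 1.82-, 1.75- and 1.58-fold higher in T cells) and in 1 member in IR (Rbm15, 1.51-fold). Over all genes with at least 50 UMIs the same was true of 52.3% in Control and 51.8% in IR, a larger share than among the members. Zc3h13 was still higher in IR T cells than in IR macrophages, by 1.38-fold.

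**Figure D1:**
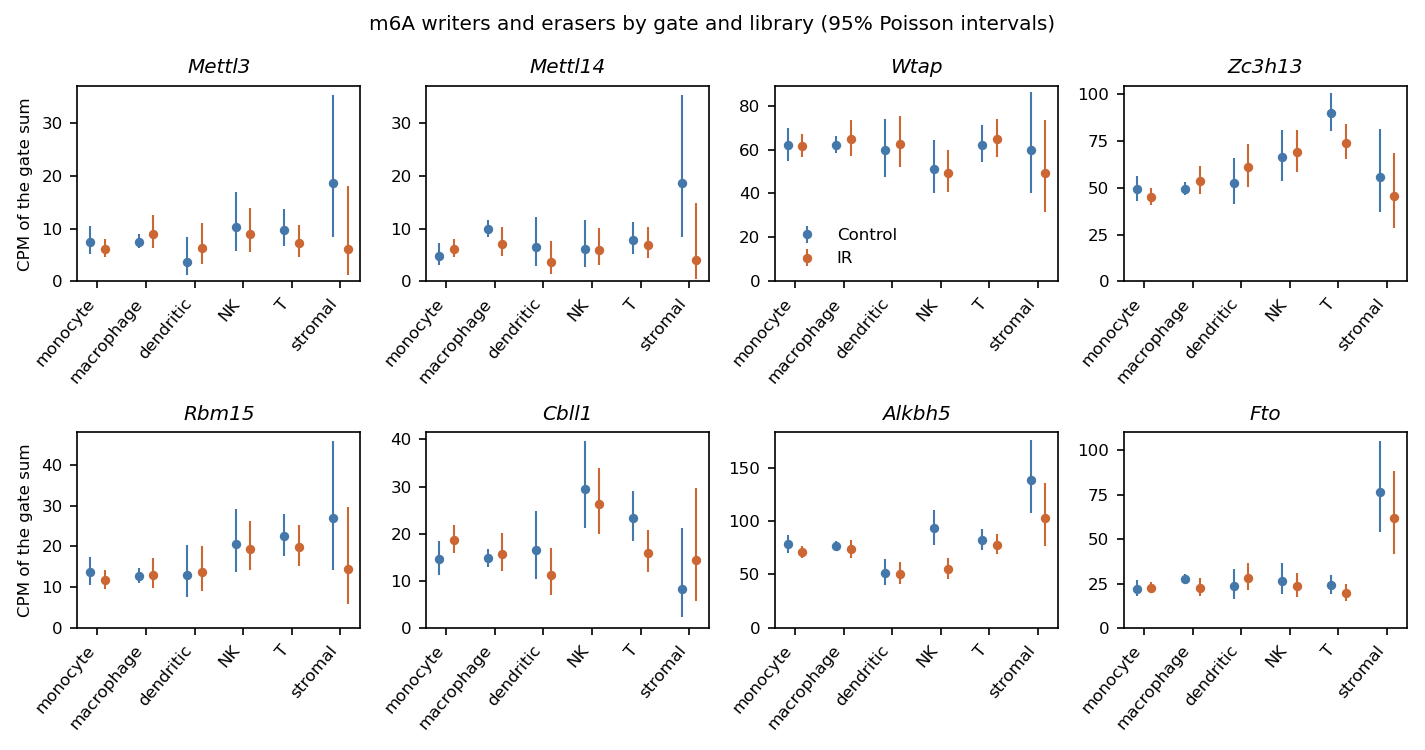
Level of each member (y axis, CPM of the gate sum, separate scale per panel) in 6 gates (x axis) for the Control library (blue) and the IR library (orange), with 95% Poisson intervals. Zc3h13 is highest in T cells (90.1 and 74.1 CPM), Wtap is level across the 5 main gates, and the points of Alkbh5 and Fto are highest in the stromal gate.

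Alkbh5, the eraser found in the nucleus, was well counted in all main gates. Monocytes had 78.1 CPM in Control (354 UMIs, 70.2 to 86.7) and 71.2 CPM in IR (614 UMIs, 65.7 to 77.0). Macrophages had 76.4 CPM (1205 UMIs, 72.2 to 80.9) and 73.5 CPM (286 UMIs, 65.2 to 82.5), and T cells 82.6 CPM (287 UMIs, 73.4 to 92.8) and 78.0 CPM (260 UMIs, 68.8 to 88.1). Dendritic cells were lower than these 3 gates in both libraries, with 51.1 CPM in Control (71 UMIs, 39.9 to 64.4) and 50.4 CPM in IR (95 UMIs, 40.8 to 61.7), and the intervals did not overlap. The share of all genes with such a difference between these gates was not counted. NK cells had 93.0 CPM in Control (136 UMIs, 78.0 to 110.0), in the range of T cells, and 54.9 CPM in IR (121 UMIs, 45.5 to 65.6), in the range of dendritic cells.

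Fto, the other eraser, was level across the 5 main gates. It had 22.1 CPM in Control monocytes (100 UMIs, 18.0 to 26.8), 22.5 CPM in IR monocytes (194 UMIs, 19.4 to 25.9), 27.4 CPM in Control macrophages (432 UMIs, 24.9 to 30.1) and 22.6 CPM in IR macrophages (88 UMIs, 18.1 to 27.9). T cells had 24.2 and 19.5 CPM, NK cells 26.7 and 23.6 CPM, and dendritic cells 23.7 and 28.1 CPM. Within each library the intervals of all 5 gates overlapped.

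Both erasers had a higher level in a gate of non-immune cells than in any of the 5 main gates. This gate of stromal cells (38 Control and 25 IR barcodes with collagen transcripts) held Alkbh5 at 139 CPM in Control (67 UMIs, 107 to 176) and 103 CPM in IR (50 UMIs, 76.5 to 136). Its Fto level was 76.5 CPM in Control (37 UMIs, 53.9 to 106) and 61.8 CPM in IR (30 UMIs, 41.7 to 88.2). For Fto both intervals lay above those of the 5 main gates. For Alkbh5 the Control interval lay above all of them but that of NK cells, and the IR interval overlapped those of monocytes, macrophages and T cells. How many of all genes lay apart in this way between the stromal and the main gates was not counted, so nothing particular to the erasers is read from it. The CD4 T cells within the T cell gate had 116 CPM of Alkbh5 in Control (80.7 to 161) and 124 CPM in IR (28 UMIs, 82.1 to 179). The stromal cells had almost none of the transcript of the sorted marker, with 2 and 11 UMIs of Ptprc (CD45), or 4.14 and 22.7 CPM, where monocytes had 562 and 546 CPM. Of the writers, Wtap was at 60.0 and 49.5 CPM and Zc3h13 at 55.9 and 45.3 CPM in the stromal gate. The 4 sparser writers had 2 to 13 UMIs there, with Mettl3 at 18.6 and 6.18 CPM, Mettl14 at 18.6 and 4.12 CPM, Rbm15 at 26.9 and 14.4 CPM and Cbll1 at 8.28 and 14.4 CPM.

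The study set irradiated against untreated tumors, and the second question is which members differed between the 2 libraries within a lineage. Members differed little. Of the 40 pairs of a member and a main gate, 34 had at least 50 UMIs over both libraries, and 1 of these (2.94%), Alkbh5 in NK cells, differed by 1.5-fold or more. By gate the counts were 0 of 8 members in monocytes, 0 of 8 in macrophages, 0 of 4 in dendritic cells, 1 of 6 in NK cells and 0 of 8 in T cells. Over all genes with at least 50 UMIs, 13% passed that fold in monocytes, 17.2% in macrophages, 15.2% in dendritic cells, 15.2% in NK cells and 11.9% in T cells, so that 1 of 6 members in NK cells is close to the background of that gate. The same single pair had Poisson intervals that did not overlap, against 22.5% of all genes in monocytes, 25.6% in macrophages, 14.9% in dendritic cells, 13.1% in NK cells and 15.3% in T cells.

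In monocytes the log2 ratio, IR over Control, ran from -0.29 (Mettl3) to 0.36 (Cbll1) over the 8 members, with a median of -0.07, equal to the median of all genes in the gate. The summed level of the 8 members was 252 CPM in Control (238 to 267) and 243 CPM in IR (233 to 254). Wtap and Fto were the closest to 0, at -0.01 (-0.22 to 0.20) and 0.03 (-0.33 to 0.39). The largest monocyte difference, that of Cbll1, had an interval of -0.06 to 0.79 and so did not exclude equal levels. With TMM scaling, an alternative to the gate total, it was 0.45 (0.03 to 0.89), an interval that did not include 0.

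Macrophages gave a median of 0.04 over the 8 members and -0.08 over all genes, with a range from -0.48 (Mettl14, -1.11 to 0.11) to 0.25 (Mettl3, -0.34 to 0.81). The sum of the members was 261 CPM in Control and 259 CPM in IR. As cycling macrophages were more frequent in Control (456 of 1648 barcodes) than in IR (39 of 334), the gate was also looked at by UMIs of 11 cell cycle genes (3 or more in cycling cells, 0 in non-cycling cells). In the whole gate the log2 ratio of Fto was -0.28 (-0.63 to 0.06). In cycling macrophages Fto had 30.4 CPM in Control (181 UMIs, 26.1 to 35.2) and 28.3 CPM in IR (24 UMIs, 18.1 to 42.1). Non-cycling macrophages had 27.7 CPM of Fto in Control (164 UMIs, 23.6 to 32.3) and 17.0 CPM in IR (37 UMIs, 11.9 to 23.4), a log2 ratio of -0.71 (-1.26 to -0.19) with intervals that did not overlap. In non-cycling macrophages 18% of all genes had intervals without overlap, and Fto was the only member among them. The barcodes in between, with 1 or 2 such UMIs (423 in Control and 71 in IR), a group added after seeing the data, had Fto at 22.4 CPM in Control (87 UMIs, 17.9 to 27.6) and 31.3 CPM in IR (27 UMIs, 20.6 to 45.5), a log2 ratio of 0.48 (-0.20 to 1.12).

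Dendritic cells had a median log2 ratio of 0.14 over the 4 members with at least 50 UMIs (Wtap, Zc3h13, Alkbh5 and Fto) and of 0.04 over all genes. All 4 intervals included 0. Most of these cells carried Ccr7 or Fscn1 of mature dendritic cells (128 of 175 Control and 151 of 188 IR barcodes), in which Alkbh5 was at 54.6 and 45.4 CPM, Wtap at 65.0 and 63.5 CPM and Zc3h13 at 54.6 and 60.9 CPM.

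Of the member differences in the 5 undivided main gates, 1 passed the fold and had intervals without overlap, that of Alkbh5 in NK cells. Alkbh5 was 93.0 CPM in Control and 54.9 CPM in IR, 1.70-fold lower in IR, with a log2 ratio of -0.76 (-1.13 to -0.40). For the other eraser, Fto, the ratio was -0.18 (-0.80 to 0.46), and for the writers with at least 50 UMIs it was -0.05 for Wtap (-0.49 to 0.39), 0.06 for Zc3h13 (-0.32 to 0.44), -0.07 for Rbm15 (-0.78 to 0.65) and -0.16 for Cbll1 (-0.76 to 0.44). The summed level of the 8 members in NK cells, Alkbh5 included, was 304 CPM in Control (276 to 333) and 258 CPM in IR (237 to 280). Its log2 ratio was -0.24 (-0.42 to -0.06), although the intervals of the 2 levels overlapped. The Alkbh5 interval in NK cells lay below those of monocytes (-0.33 to 0.06), macrophages (-0.25 to 0.13) and T cells (-0.33 to 0.16) and overlapped that of dendritic cells (-0.48 to 0.45), and the difference between gates was not tested.

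The make-up of the NK cell gate differed between the libraries. The gate was also split by granzyme UMIs, a step chosen after the data were seen. Barcodes with more Gzma than Gzmc to Gzmg UMIs (granzymes, the killing proteases of these cells) were 97 of 201 in Control and 178 of 246 in IR. In them Alkbh5 was 121 CPM in Control (54 UMIs, 91.0 to 158) and 67.5 CPM in IR (74 UMIs, 53.0 to 84.7), a log2 ratio of -0.84 (-1.37 to -0.31). In the other barcodes it was 80.7 CPM (82 UMIs, 64.2 to 100.2) and 42.4 CPM (47 UMIs, 31.1 to 56.4), a log2 ratio of -0.93 (-1.48 to -0.39). Alkbh5 was lower in IR on both sides of the split, without overlap of the intervals. These are the counts of the same gate taken apart, and the part of its make-up in the Alkbh5 difference was not tested. The 8 members summed, Alkbh5 included, were at 323 and 300 CPM in the Gzma-led barcodes, a log2 ratio of -0.11 (-0.39 to 0.19). In the rest the sum was 295 and 215 CPM, a log2 ratio of -0.45 (-0.71 to -0.20) without overlap. Fto and Wtap were at -0.47 and -0.41 there, and Mettl3 and Mettl14 at 0.14 and 0.24, all with intervals that included 0. Intervals of 8.67% of all genes did not overlap in the Gzma-led barcodes and of 15.1% in the rest. Zc3h13, by contrast, had log2 ratios of opposite sign in them, 0.67 where Gzma led, with an interval that included 0, and -0.38 (-0.89 to 0.12) in the rest.

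**Figure D2:**
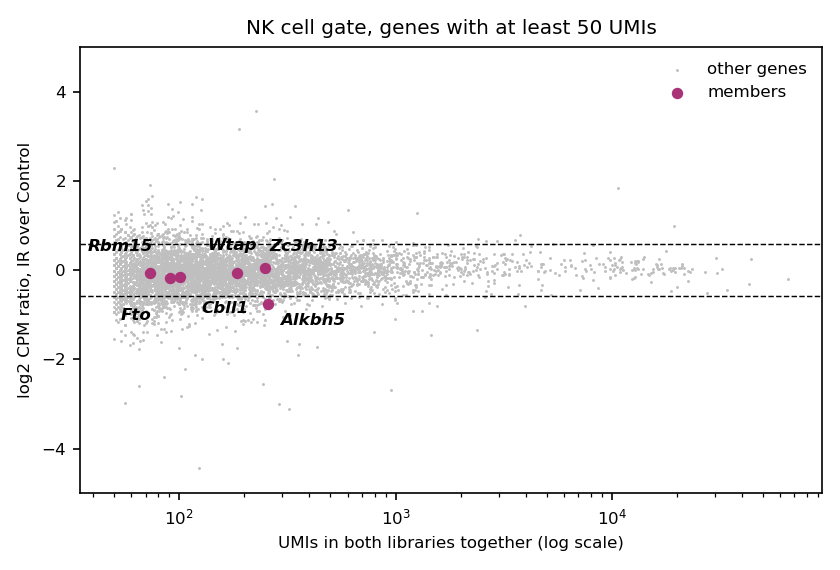
Each point is a gene with at least 50 UMIs in the NK cell gate, with its UMIs over both libraries (x axis, log scale) and its log2 CPM ratio, IR over Control (y axis), where dashed lines mark 1.5-fold and the 6 members are colored. Alkbh5 lies below the lower line at -0.76, where 15.2% of all genes lie outside the lines, and the other 5 members lie between them.

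T cells had ratios below 0 for 7 of the 8 members, with a median of -0.23 over members and -0.10 over all genes. Zc3h13 had a log2 ratio of -0.28 (-0.53 to -0.04) and Cbll1 of -0.55 (-1.08 to -0.04), and these intervals of the ratio did not include 0, although the intervals of the 2 levels overlapped. The Wtap ratio was 0.06 (-0.22 to 0.34) and that of Alkbh5 -0.08 (-0.33 to 0.16). The summed level of the 8 was 323 CPM in Control (304 to 342) and 286 CPM in IR (268 to 305). TMM scaling, an alternative to the gate total, moved all T cell ratios up by 0.11, about the size of the median of all genes. Both intervals then included 0, with Zc3h13 at -0.18 (-0.42 to 0.07) and Cbll1 at -0.45 (-0.98 to 0.07), and 6 of the 8 ratios were below 0. With mixed barcodes assigned to a lineage the ratios were -0.10 for Zc3h13 and -0.19 for Cbll1.

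**Figure D3:**
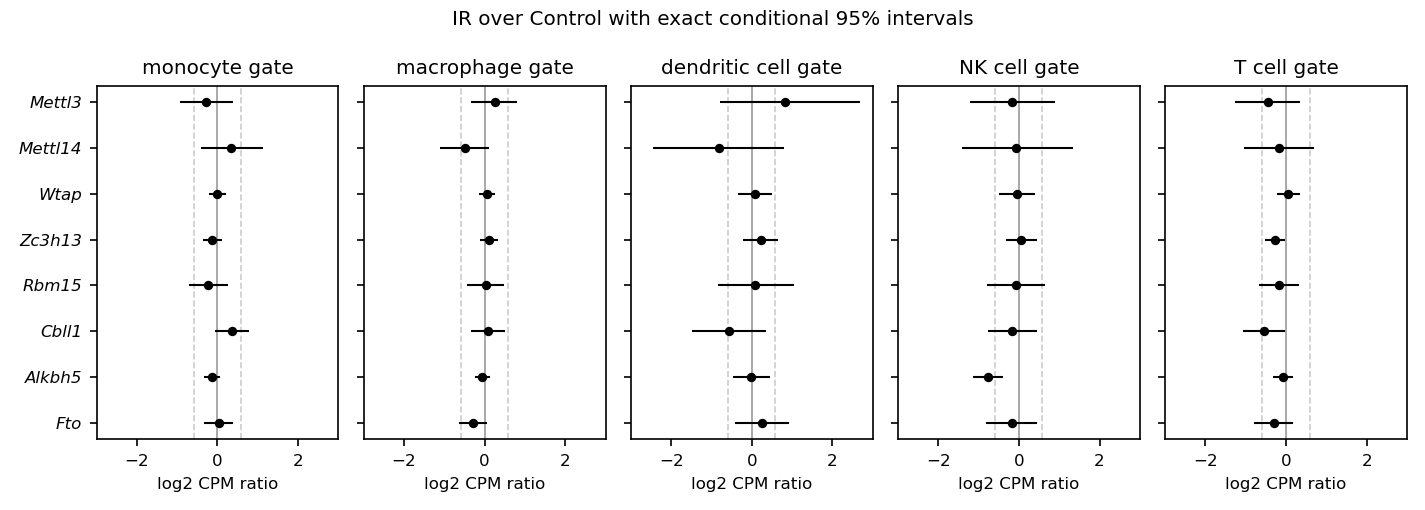
Log2 CPM ratio, IR over Control (x axis), of the 8 members (y axis) in 5 gates, with exact conditional 95% intervals and dashed lines at 1.5-fold. Most points lie within the lines, the intervals of Mettl3 and Mettl14 are wide, and Alkbh5 in NK cells (-0.76) has the interval farthest from 0.

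The balance of erasers and writers within the same cells needs no scaling to a library total. Alkbh5 and Fto made up 39.8% of the member UMIs in Control monocytes (Clopper-Pearson interval 36.9% to 42.7%) and 38.5% in IR monocytes (36.5% to 40.7%). In macrophages the share was 39.8% (38.3% to 41.4%) and 37.0% (34.0% to 40.1%), in dendritic cells 33.0% and 33.1%, and in T cells 33.1% and 34.1%. These 4 gates had overlapping intervals between the libraries. NK cells had 39.4% in Control (34.8% to 44.1%) and 30.5% in IR (26.7% to 34.4%), without overlap, which rests on the Alkbh5 counts given above. In the stromal gate it was 53.3% (46.1% to 60.5%) and 55.2% (46.7% to 63.4%), above the 5 main gates in both libraries without overlap. The IR neutrophils had 60.0% from 24 of 40 UMIs (43.3% to 75.1%).

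**Figure D4:**
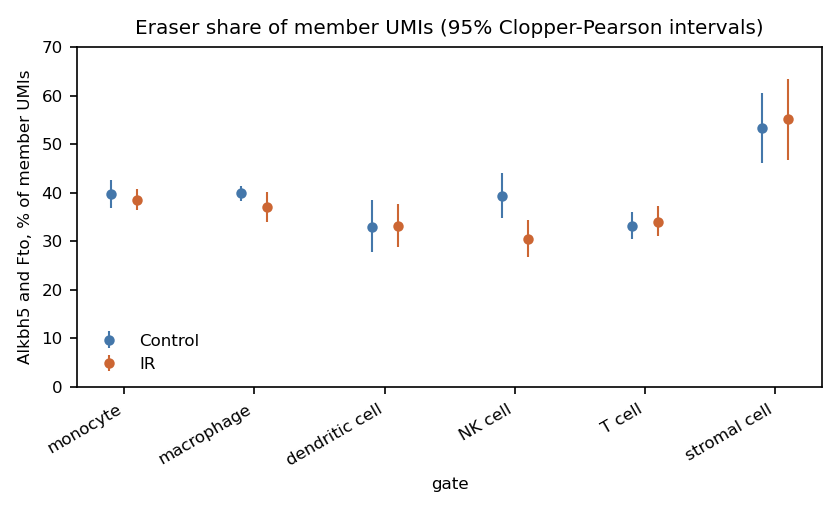
Share of the UMIs of the 8 members that belong to Alkbh5 and Fto (y axis, percent) in 6 gates (x axis) for the Control library (blue) and the IR library (orange), with 95% Clopper-Pearson intervals. The share is lower in IR in NK cells (39.4% and 30.5%) and above 50% in the stromal gate.

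Members were also present outside cells, in droplets with 10 to 100 UMIs (66977 in Control and 75490 in IR). There Alkbh5 was at 66.4 CPM in Control (59.0 to 74.6) and 67.2 CPM in IR (58.4 to 77.0), with overlapping intervals. Carried-over transcripts in the NK cell gate differed between the libraries. The macrophage list was at 79.3 CPM in the Control library and 15.9 CPM in the IR library. With 5% or 10% free RNA subtracted, the same share in both libraries, Alkbh5 in NK cells was still lower in IR by more than 1.5-fold. The part of a carry-over that differs between the libraries was not tested. In the droplets outside cells Mettl3 was at 9.49 CPM in Control (41 UMIs) and 3.88 CPM in IR (12 UMIs), Mettl14 at 11.6 CPM (50 UMIs) and 4.20 CPM (13 UMIs), and Cbll1 at 17.1 CPM (74 UMIs) and 7.43 CPM (23 UMIs). Wtap was at 77.5 CPM in Control (69.5 to 86.3) and 59.1 CPM in IR (50.9 to 68.3). These 4 writers were lower in IR without overlap of the intervals, against 19.9% of all genes in such droplets, and in the 5 main gates none of the 4 differed in this way.

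Neutrophils and basophils or mast cells gave too few counts for most members. Among 34 Control and 119 IR neutrophil barcodes, Wtap had 23 and 6 UMIs, or 72.1 CPM (45.7 to 108) and 20.6 CPM (7.55 to 44.8), and Alkbh5 had 19 and 24 UMIs, or 59.5 and 82.3 CPM. Fto had 1 UMI in Control and 0 in IR, and Mettl3 had 3 and 0. The intervals of Wtap did not overlap, as was the case for 59.4% of the genes with at least 20 UMIs in that gate. Summed S100a8, S100a9 and Il1r2, which neutrophils carry in quantity, were at 10369 CPM in the Control gate and 68259 CPM in the IR gate, so the barcodes of the 2 libraries were not alike in it, and the part of this in the Wtap values was not tested.

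As for single cells, 35.4% of Control and 40.6% of IR monocyte barcodes held a UMI of Wtap, and 40.1% and 42.5% one of Alkbh5. With each barcode thinned to 2000 UMIs (607 Control and 946 IR barcodes, with 26 and 25 shallower ones left out) the shares were 10.2% (7.92% to 12.9%) and 13.0% (10.9% to 15.3%) for Wtap and 14.3% (11.6% to 17.4%) and 12.5% (10.4% to 14.7%) for Alkbh5. Mettl3 was then found in 1.48% and 1.59% of barcodes. No cell type that should lack these transcripts was at hand for a background share, and no difference between the libraries is read from them.

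Members were also set side by side over the 12 populations with at least 50 barcodes and 200000 UMIs, by Pearson r of log2(CPM + 10), as a description. The populations of 1 library share its depth and free RNA. Zc3h13 and Rbm15 were the most alike pair (r = 0.95), and they stayed so over the 10 populations of the main gates (r = 0.93), an alternative added after the data were seen. Alkbh5 and Fto were not alike, with r of -0.37 over the 12 and -0.17 over the 10. Wtap was like Cbll1 over the 12 (r = 0.82) and opposite to it over the 10 (r = -0.79), so the first value rested on the IR neutrophils and the IR basophils or mast cells.

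Among 7580 genes, the 3 with a pattern most like that of each member kept r above 0.8 without the same small populations for Mettl3 (Cep135, 0.92; Exosc5, 0.90; Rbm34, 0.91), Zc3h13 (Snrnp70, 0.91; Abt1, 0.93; Nfatc2ip, 0.91), Rbm15 (Rps15a, 0.98; Ldb1, 0.96; Cnbp, 0.96), Cbll1 (Endod1, 0.87; Itch, 0.84; Scap, 0.84) and Alkbh5 (Hip1, 0.87; Rdh11, 0.90; Slc30a9, 0.86). For Wtap and Fto they did not, with r from 0.50 to 0.75 and from 0.30 to 0.63. The 3 genes of each member were picked over the 12 populations, which include these 10, so a high r was in part given by the choice. How many of the 7580 genes reach 0.8 was not counted. Mettl14, with a median of 17.5 UMIs, was left out.

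Other genes of the pathway, 28 in 5 lists, gave few differences of 1.5-fold. Among 8 other methyltransferase genes and partners, 2 were lower in IR T cells, where 11.9% of all genes passed the fold in either direction: Virma, the scaffold of the writer complex, at 39.5 CPM in Control (137 UMIs) and 23.1 CPM in IR (77 UMIs), a log2 ratio of -0.77 (-1.19 to -0.36), and Mettl4 at 12.7 and 7.50 CPM (-0.76, -1.53 to -0.02). Of the 7 in monocytes, 8 in macrophages, 3 in dendritic cells and 6 in NK cells with at least 50 UMIs, 0 passed the fold. Virma binds the same complex as Zc3h13, Wtap and Cbll1, for which the T cell ratios are given above. Of the 5 YTH readers, 1 passed it in 1 gate, Ythdf2, which binds m6A and speeds the decay of transcripts, at 48.9 CPM in Control dendritic cells (68 UMIs) and 80.7 CPM in IR (152 UMIs), a log2 ratio of 0.72 (0.30 to 1.16), in a gate where 15.2% of all genes passed the fold. Of the 5 other m6A-binding genes, 2 had at least 50 UMIs in each gate, Hnrnpa2b1 and Hnrnpc, and neither passed the fold in any. Their levels were lower in IR without overlap of the intervals in monocytes (-0.17 and -0.31) and in macrophages (-0.26 and -0.43). Of the YTH readers, 2 had intervals without overlap in macrophages. Among all genes 22.5% had such intervals in monocytes and 25.6% in macrophages.

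The other AlkB-family dioxygenases, relatives of ALKBH5 and FTO with other substrates, gave 1 of 5 tested in monocytes, 1 of 7 in macrophages, 0 of 3 in dendritic cells, 1 of 4 in NK cells and 0 of 5 in T cells. The shares of all genes that passed the fold were 13% in monocytes, 17.2% in macrophages and 15.2% in NK cells. Alkbh7 in monocytes was lower in IR, with 18.1 CPM in Control (82 UMIs) and 11.7 CPM in IR (101 UMIs), a log2 ratio of -0.63 (-1.06 to -0.19). Alkbh8 in macrophages (0.65, -0.10 to 1.35) and Alkbh6 in NK cells (0.66, -0.16 to 1.54) were higher in IR with intervals that include 0. In NK cells the eraser Alkbh5 was lower in IR, and the median of the 4 tested relatives was 0.26. The relatives with under 50 UMIs there had log2 ratios of 0.52 (Alkbh2), -0.50 (Alkbh4) and -0.49 (Alkbh8). The difference between Alkbh5 and its relatives was not tested. Of the 3 genes that supply or recycle the methyl donor of METTL3, Ahcy passed the fold in macrophages, with 51 and 8 UMIs and an interval of -1.94 to 0.43. Intervals of the levels did not overlap for 1 of the 2 tested in monocytes and 1 of the 3 in macrophages, against 22.5% and 25.6% of all genes.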

How the data were processed

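The 8 members and the gene lists were chosen with earlier results of these data known. The authors deposited unfiltered UMI counts (genes by barcodes) for each library, aligned to mm10 and counted with Cell Ranger. The submitters' notes name version 6.0.1 and the matrix headers name version 4. The libraries held 48593879 (Control) and 42406461 (IR) UMIs. Reads were 3′ tags not scaled to transcript length, so levels were compared between gates and not between genes. Barcodes (at least 1000 UMIs, at most 25% mitochondrial) were gated by marker UMIs (3 to 10 per list). Barcodes meeting 2 lineages were left out, which stood in for a doublet caller. Counts were summed per gate and library and given as CPM with exact Poisson intervals, ratios with exact conditional intervals and shares with Clopper-Pearson intervals (scipy 1.17.1), all at 95% and for counting error only. With 1 library per group no model was fitted, and edgeR 4.0.16 served for TMM factors alone. The background was every gene with at least 50 UMIs in the gate over both libraries. All 8 members are described, and pathway genes are named when they passed 1.5-fold, at most 3 per list and gate. The ratio and interval code was tested on simulated data. Alternatives changed the barcode filter, markers, mixed barcodes, doublets, scaling, free RNA and gene minimum.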

Additional observations from a re-analysis of the deposited data

How the results depend on the processing

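No paired analysis was possible because each group has 1 library. Under 11 alternatives each, the log2 ratio of the summed members stayed inside its main interval in all 55 cases, between -0.27 and 0.11. The number of members past 1.5-fold was the same in 63 of 65 cases. In monocytes it was 1 in place of 0 with at most 10% mitochondrial UMIs and with 10% free RNA subtracted, through Mettl14 (log2 ratios of 0.61 and 0.63, 22 and 53 UMIs in the main gate). Alkbh5 in NK cells ranged from -0.93 to -0.59 over 13 alternatives. These include the parts of the gate split by granzyme UMIs, which are other sets of cells and not a change of processing. The value of -0.93 is that of the barcodes not led by Gzma. The eraser share of Control T cells was 36.2% with mixed barcodes assigned, against 33.1%. The share in NK cells ranged from 39.0% to 40.0% in Control and from 29.7% to 31.9% in IR. TMM scaling moved the log2 ratios by -0.02 to 0.11. Leaving mitochondrial and ribosomal protein genes out of the total raised CPM levels, and of 880 alternative levels of single members 53 lay outside their main interval, 52 of them above. Thinned to 4000 UMIs, Wtap in monocytes had a log2 ratio of shares of -0.15 in place of 0.35. For genes with at least 200 UMIs the background past 1.5-fold was 6.82% in T cells to 11.8% in macrophages, with Alkbh5 in NK cells the 1 member of 17 pairs beyond it. For Mettl3 and Mettl14 in dendritic and NK cells, with under 50 UMIs, the intervals of the ratio reached past 1.5-fold in both directions. The same held for Rbm15 in dendritic cells (-0.83 to 1.05) and NK cells (-0.78 to 0.65) and for Mettl14 in T cells (-1.04 to 0.68). Other intervals reached past it only downward, as for Mettl14 in macrophages (-1.11 to 0.11) and Cbll1 in T cells (-1.08 to -0.04). That of Cbll1 in monocytes (-0.06 to 0.79) did so only upward.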

Other observations

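In the barcodes with markers of more than 1 lineage, which were left out of the gates, the 8 members together were at 284 CPM in Control (274 to 293) and 269 CPM in IR (261 to 278). Alkbh5 was at 83.7 and 77.1 CPM there, Fto at 33.1 and 28.7 CPM and Wtap at 59.1 and 59.8 CPM. Most of these barcodes, 572 of 763 in Control and 452 of 774 in IR, held T or NK cell markers together with those of monocytes or macrophages.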
